A study of Mus musculus with 12 samples.

Results

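The Cyp2c family in mouse liver was examined in RNA-seq count tables of 12 mice. The 10 members, Cyp2c55, Cyp2c29, Cyp2c38, Cyp2c39, Cyp2c40, Cyp2c37, Cyp2c54, Cyp2c50, Cyp2c70 and Cyp2c44, were taken by name from the 24062 gene rows of the tables, all on chromosome 19. The tables hold 6 further rows of the same subfamily, Cyp2c65, Cyp2c66, Cyp2c67, Cyp2c68, Cyp2c69 and the pseudogene Cyp2c53-ps. Of the 24062 genes, 12481 passed the filter of at least 1 CPM (read per 1e6 counted reads) in at least 2 libraries and were tested, and these include all 10 members and 3 of the 6 further rows.

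All mice were female C57BL/6J (B6) animals, received at an age of 6 weeks, acclimated for 2 weeks and moved from chow to the control diet for 3 days. They were then randomized to stay on the control diet or to receive a matched diet that contained BIBB-515, an inhibitor of lanosterol synthase, at 55 mg per kg body weight, for 10 days. The study used 11 mice per diet, and 6 libraries of each diet were analysed here, numbered 1 to 6 for control and 6 to 11 for BIBB-515. Each library held between 22764819 and 31058370 counted reads. The diets were compared to find which liver genes respond to inhibition of lanosterol synthase, and mRNA of Lss, the gene of that enzyme, is not a measure of how far the enzyme was inhibited. Lss had a mean of 78.8 ± 47.1 CPM (SD, n = 6) in control and 136 ± 26.1 CPM (SD, n = 6) in BIBB-515 mice (FDR 0.0854 by edgeR's quasi-likelihood test).

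Cyp2c enzymes are microsomal cytochrome P450s that receive electrons from the reductase encoded by Por. They hydroxylate drugs, steroids and retinoids, and several convert arachidonic and linoleic acid to epoxides or hydroxy acids. In liver, many genes of this subfamily are known targets of the nuclear receptors CAR (Nr1i3) and PXR (Nr1i2), and several are expressed mostly in hepatocytes around the central vein.

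BIBB-515 was accompanied by a rise of 4 members and a fall of 1. Cyp2c55, Cyp2c29, Cyp2c50 and Cyp2c54 rose, Cyp2c70 fell, and Cyp2c37, Cyp2c44, Cyp2c38, Cyp2c39 and Cyp2c40 did not pass an adjusted p (FDR) of 0.05. Of all tested genes, 7.18% were higher and 6.48% lower with BIBB-515 at this threshold, against 4 and 1 of the 10 members. The median log2 fold change was 0.42 over the members and -0.01 over all tested genes, and the members ranged from -0.81 to 5.98. In 4 members, Cyp2c55, Cyp2c29, Cyp2c50 and Cyp2c70, the 6 BIBB-515 mice did not overlap the 6 control mice, which holds for 7.07% of all tested genes. In RNA of whole liver, fewer cells of a type and less RNA per cell cannot be told apart.

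**Figure D1:**
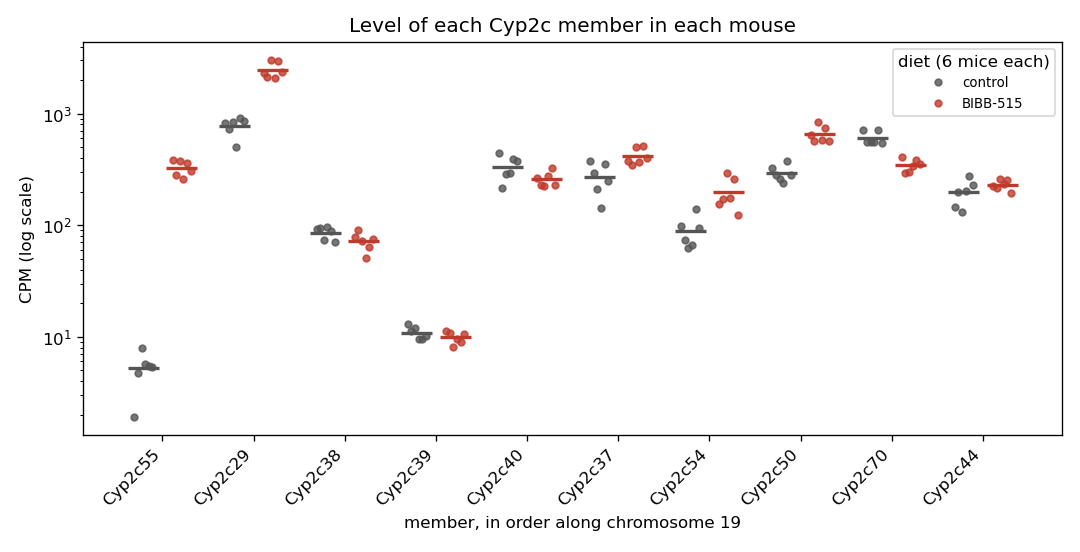
CPM of the 10 members in each mouse, on a log axis and in the order of the genes along chromosome 19; points are mice (6 per diet, grey for control and red for BIBB-515) and bars are means. The BIBB-515 points lie above every control point for Cyp2c55, Cyp2c29 and Cyp2c50 and below every control point for Cyp2c70.

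Cyp2c55 encodes an arachidonate and linoleate hydroxylase best known from the intestine. It lies at chr19:39007019-39042687 on the plus strand (mm10) and is the first gene of the cluster. Its level was 1.90 CPM in the lowest control mouse, 5.40 at the median and 8.01 in the highest, from 49 to 183 reads per library. In the BIBB-515 mice it was 257 CPM in the lowest, 333 at the median and 388 in the highest, from 6354 to 12222 reads. The groups were far apart, with the lowest BIBB-515 mouse above the highest control mouse. The log2 fold change was 5.98 (standard error 0.26), a 63.2-fold higher level with an approximate 95% interval of 44.7 to 89.4 (FDR 1.59e-09, edgeR's quasi-likelihood test). Among all tested genes the fitted log2 fold changes reached at most 6.38, in Gsta1, which had at most 0.398 CPM in control mice. The proximal promoter in RefSeq (GRCm38.p6, chr19:39006769-39007068, plus strand, from 250 bases before to 50 bases after the start site) is printed because this member moved most, with the TATAAA box, which begins 29 bases before the start site, in capitals.
Cyp2c55: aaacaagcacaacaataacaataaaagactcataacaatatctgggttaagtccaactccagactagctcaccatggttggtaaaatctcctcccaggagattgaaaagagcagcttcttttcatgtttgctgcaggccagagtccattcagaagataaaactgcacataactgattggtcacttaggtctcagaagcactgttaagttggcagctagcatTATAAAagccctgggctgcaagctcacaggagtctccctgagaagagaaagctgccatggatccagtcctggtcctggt

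Among the epoxygenase-type members, Cyp2c29, a major liver enzyme that turns arachidonic acid into epoxyeicosatrienoic acids, had the highest level of the family in both diets. It lies at chr19:39287085-39330713 on the plus strand. The control mice held 499.9 CPM at the lowest, 838 at the median and 908 at the highest. The BIBB-515 mice held 2091, 2337 and 3014 CPM. No mouse of either diet entered the range of the other, and the control mouse at 499.9 CPM, number 4, stood below the other 5, which lay at 730.5 CPM or more. The log2 fold change was 1.67 (standard error 0.14), which is 3.18-fold with an approximate 95% interval of 2.61 to 3.86 (FDR 4.85e-06, same test). Its RefSeq promoter (chr19:39286835-39287134, plus strand) has in capitals AGGTCA, a nuclear receptor half-site, 154 bases before the start site, CAAAGTC 109 bases before it and TATAAA 19 bases before it.
Cyp2c29: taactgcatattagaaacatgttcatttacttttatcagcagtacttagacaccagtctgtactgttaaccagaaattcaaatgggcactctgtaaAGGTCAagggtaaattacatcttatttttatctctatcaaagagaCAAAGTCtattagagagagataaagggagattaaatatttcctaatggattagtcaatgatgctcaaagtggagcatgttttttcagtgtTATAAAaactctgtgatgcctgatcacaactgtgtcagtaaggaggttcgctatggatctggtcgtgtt

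Cyp2c50, Cyp2c54 and Cyp2c37 are close relatives that lie next to each other near the far end of the cluster and oxidize arachidonic and linoleic acid. Cyp2c50, at chr19:40089679-40113955 on the plus strand, had 237 CPM in the lowest control mouse, 281 at the median and 377 in the highest. In the BIBB-515 mice these values were 566, 611 and 838 CPM. The groups did not overlap, and the log2 fold change was 1.16 (standard error 0.13, FDR 4.10e-05). Its RefSeq promoter (chr19:40089429-40089728, plus strand) holds no TATAAA box, no half-site AGGTCA and no stretch CAAAGTC, and its capitals mark AGTTCA on the opposite strand, 35 bases before the start site.
Cyp2c50: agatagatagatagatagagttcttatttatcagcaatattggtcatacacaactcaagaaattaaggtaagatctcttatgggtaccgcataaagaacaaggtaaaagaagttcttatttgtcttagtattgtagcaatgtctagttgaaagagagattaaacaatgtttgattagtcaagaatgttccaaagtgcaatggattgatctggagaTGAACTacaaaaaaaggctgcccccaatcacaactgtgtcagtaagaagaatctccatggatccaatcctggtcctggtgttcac

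Cyp2c54, at chr19:40037940-40073813 on the minus strand, had 62.9 CPM in the lowest control mouse, 84.3 at the median and 139.5 in the highest, and 123.5, 174 and 291 CPM in the BIBB-515 mice. Here 5 of 6 BIBB-515 mice lay above every control mouse, while BIBB-515 mouse 11 lay below control mouse 5. The log2 fold change of Cyp2c54 was 1.14 (standard error 0.23, FDR 0.00451). Cyp2c37, at chr19:39992424-40012243 on the plus strand, had 142, 273 and 376 CPM at the lowest, median and highest control mouse. In the BIBB-515 mice it had 343, 389.5 and 509 CPM, with 4 of 6 above every control mouse and 6 of 6 above the control mean. Its log2 fold change of 0.61 (standard error 0.20) had an FDR of 0.0502 by edgeR's quasi-likelihood test, just outside the threshold. In 6 other settings of normalization, tool, filter or count table the FDR of Cyp2c37 lay between 0.0126 and 0.0497, and without control mouse 1 or control mouse 5 it was 0.0297 or 0.0295, while without any other single mouse it stayed above 0.05, up to 0.106.

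Cyp2c70, the mouse enzyme that hydroxylates bile acids to form muricholic acids, was the member that fell. It lies at chr19:40153361-40187286 on the minus strand and closes the cluster, 39405 bases beyond Cyp2c50. The control mice held 550.8 CPM at the lowest, 560.2 at the median and 720.2 at the highest, with mice 1 (720.2 CPM) and 5 (709 CPM) above the other 4. The BIBB-515 mice held 294, 348.5 and 405 CPM, and all 6 were below every control mouse. The log2 fold change was -0.81 (standard error 0.10, FDR 0.000166), a 1.76-fold lower level. Its RefSeq promoter (chr19:40187237-40187536, minus strand, written in the direction of the gene) has in capitals AGGTCA beginning 74 bases before the start site, CAAAGTCCA, a core sequence bound by the liver factor HNF4, 64 bases before it, and TATAAA on the opposite strand 29 bases before it.
Cyp2c70: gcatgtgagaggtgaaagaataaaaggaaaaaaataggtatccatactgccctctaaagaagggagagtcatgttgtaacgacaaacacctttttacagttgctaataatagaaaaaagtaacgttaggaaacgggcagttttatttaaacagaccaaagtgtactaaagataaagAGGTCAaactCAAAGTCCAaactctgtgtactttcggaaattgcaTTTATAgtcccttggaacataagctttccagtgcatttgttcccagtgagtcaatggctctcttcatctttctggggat

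The other 4 members differed by less. Cyp2c44, named Cyp2c23 in the GENCODE and RefSeq annotations, is an arachidonate epoxygenase and lies at chr19:44005022-44029247, 3.82 Mb beyond the rest of the cluster. It had 130.3 CPM in the lowest control mouse, 202 at the median and 277 in the highest, against 194, 229 and 262 CPM with BIBB-515, so that the BIBB-515 mice lay inside the control range (log2 fold change 0.22, standard error 0.15, FDR 0.364). Cyp2c38, an arachidonate oxidizer at chr19:39389556-39463075, had 70.4, 90.6 and 96.2 CPM in control and 50.6, 74.1 and 90.8 CPM in BIBB-515 mice (log2 fold change -0.26, standard error 0.12, FDR 0.178). The groups of Cyp2c38 overlapped, with 2 of 6 BIBB-515 mice below every control mouse. Cyp2c39, known to hydroxylate retinoic acid and encoded at chr19:39510822-39568529, was low, with 9.57, 10.7 and 12.9 CPM in control and 8.17, 10.1 and 11.2 CPM in BIBB-515 mice (log2 fold change -0.14, standard error 0.10, FDR 0.357).

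Cyp2c40, a hydroxylase of arachidonic acid at chr19:39767073-39812814, had 214 CPM in the lowest control mouse, 336 at the median and 442 in the highest. With BIBB-515 it had 227, 246 and 328 CPM, all within the control range (log2 fold change -0.37, standard error 0.15, FDR 0.120). The lowest control value was that of mouse 2, and without this mouse the log2 fold change was -0.47 and the FDR 0.0258. Cyp2c40 shares more sequence with its neighbors than any other member: 72.1% of the 50-base words of its GENCODE transcript occur in transcripts of Cyp2c67, Cyp2c68 or Cyp2c69. Their transcripts are 97.6% to 98.0% identical to that of Cyp2c40 over the aligned bases. Multi-mapping reads were left out of the counts, so reads from shared stretches can be missing and the counts of these 4 genes are uncertain. Over the control mice, exons 4 and 8 of Cyp2c40 (100% shared words) held 1942 and 2562 reads. Exon 5 (32.2%) held 10106 and exon 6 (94.4%) held 7664.

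The 3 near-copies of Cyp2c40 are no members but were read beside it for that reason. On the log2 scale Cyp2c67 changed by -0.41 (standard error 0.09, FDR 0.0105), Cyp2c68 by -0.42 (standard error 0.12, FDR 0.0371) and Cyp2c69 by -1.21 (standard error 0.36, FDR 0.0368). All 3 passed the threshold on the lower side, with overlapping groups. Cyp2c69 had the widest spread among the tested Cyp2c genes in control mice, from 188 CPM in mouse 2 and 220 CPM in mouse 3 to 559 at the median and 1077 in mouse 5, against 154 to 327 CPM in the BIBB-515 mice. The calls of Cyp2c68 and of Cyp2c69 were each lost in 9 of 18 other settings, among them the omission of control mouse 5, with FDR up to 0.0747 and 0.0775, whereas that of Cyp2c67 held in 18 of 18. Summed over Cyp2c40 and these 3 genes, the level was 1344 ± 472 CPM (SD, n = 6) in control and 839.9 ± 115 CPM (SD, n = 6) in BIBB-515 mice. The sum does not bring back multi-mapping reads, which were left out. The ranges of the sum, 785.6 to 1981 and 717.5 to 1021 CPM, overlapped. Cyp2c65 had 9 reads over the 12 libraries, Cyp2c53-ps had 6 and Cyp2c66 had 0, which allows up to 3 reads in all, and these rows were not tested.

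**Figure D2:**
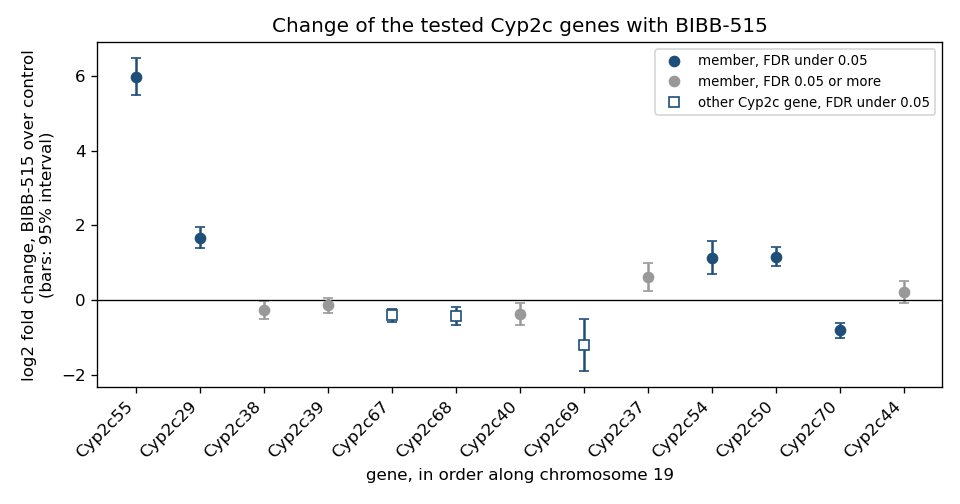
Log2 fold change (BIBB-515 over control, edgeR) of the 13 tested Cyp2c genes in order along chromosome 19, with bars for the approximate 95% interval, which is too narrow. Filled circles are members, open squares the 3 other genes, blue an FDR under 0.05 and grey 0.05 or more. Cyp2c55 stands at 5.98, Cyp2c29, Cyp2c54 and Cyp2c50 between 1.14 and 1.67, and Cyp2c70 at -0.81.

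The other copies with much shared sequence are Cyp2c37, Cyp2c50 and Cyp2c54. Between 25.7% and 30.7% of the 50-base words of these transcripts occur in another gene, and their transcripts are 94.8% to 95.8% identical. For Cyp2c39 this share was 12.0%, for Cyp2c38 7.45%, for Cyp2c29 2.08% and for Cyp2c55 1.13%, and for Cyp2c70 and Cyp2c44 no such word was shared. The second set of count tables, made from primary alignments, held between 1.00 and 1.02 times as many reads for each member, and the largest ratio was that of Cyp2c39. Whether the alignments behind these tables kept reads that map to several places is not given in the sources used here, so this ratio says nothing firm about reads shared between copies.

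Each member has 9 exons in its GENCODE transcript, and the exon tables of the authors allowed the change to be read along each gene, as the difference of mean log2 CPM with 0.5 reads added. Cyp2c55 was higher at 9 of 9 exons, by 5.83 to 6.40, and the groups did not overlap at any of them. Cyp2c29 was higher by 1.55 to 1.78 and Cyp2c50 by 1.11 to 1.31, both without overlap at 9 of 9 exons. These differences varied little along the genes. The 9 exons of Cyp2c54 were higher by 1.07 to 1.18, 2 of them without overlap, and those of Cyp2c37 by 0.63 to 0.79 with overlap at each. At the exon of each gene that shares least with other genes the difference was 1.20 in exon 8 of Cyp2c50 (0.704% shared words), 1.11 in exon 5 of Cyp2c54 (3.39%) and 0.67 in exon 8 of Cyp2c37 (8.45%). Exons with few shared words thus gave differences near those of the whole genes.

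Cyp2c70 was lower at 9 of 9 exons, by -0.86 to -0.72, and at 7 of them without overlap. Cyp2c40 was lower at 9 of 9 exons (-0.40 to -0.12) and Cyp2c38 at 9 of 9 (-0.35 to -0.13), with overlapping groups throughout. Cyp2c44 was higher at 9 of 9 exons, by 0.25 to 0.38, also with overlap. Cyp2c39 had 4 exons higher and 5 lower, from -0.29 in exon 9 to 0.55 in exon 1, and exon 1 rested on 64 reads summed over the control mice. A read across a splice junction counts for both exons in these tables, so the exons of a gene are not independent measurements.

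**Figure D3:**
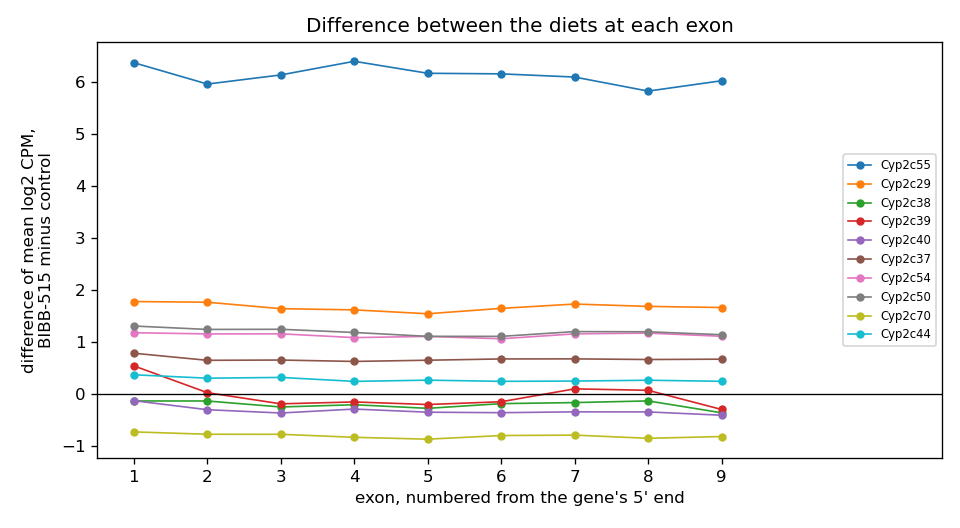
Difference between the diets in mean log2 CPM (BIBB-515 minus control, 6 mice each) at exons 1 to 9 of each member, with 1 line per gene. Cyp2c55 runs between 5.83 and 6.40, Cyp2c29 near 1.67, Cyp2c50 and Cyp2c54 between 1.07 and 1.31 and Cyp2c70 between -0.86 and -0.72.

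Levels of different members were compared as CPM per kilobase of exon. Leaving out multi-mapping reads can lower the level of members with much shared sequence. The share of such words was 72.1% in Cyp2c40 and 25.7% to 30.7% in Cyp2c37, Cyp2c50 and Cyp2c54, against at most 12.0% in the other members. The order and the shares were not corrected for this. In control mice the order was Cyp2c29 at 436 ± 83.5 CPM per kb (SD, n = 6), Cyp2c70 at 356 ± 47.9, Cyp2c40 at 186 ± 46.2, Cyp2c37 at 149 ± 48.9, Cyp2c50 at 99.98 ± 17.1, Cyp2c44 at 90.1 ± 24.6, Cyp2c54 at 50.4 ± 16.2, Cyp2c38 at 29.9 ± 3.88, Cyp2c39 at 5.88 ± 0.737 and Cyp2c55 at 2.62 ± 0.989. The ranges of neighbors in this order overlapped except for Cyp2c70 over Cyp2c40, Cyp2c54 over Cyp2c38, Cyp2c38 over Cyp2c39 and Cyp2c39 over Cyp2c55. The exon length of Cyp2c50 in the tables, 2932 bases, includes an exon of 1389 bases that spans an intron of the GENCODE transcript. With the transcript's own length of 1812 bases Cyp2c50 stood at 162 ± 27.6 CPM per kb and ranked 4, and Cyp2c37 ranked 5.

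With BIBB-515 the order was Cyp2c29 at 1386 ± 227 CPM per kb, then Cyp2c37 at 228 ± 38.3, Cyp2c50 at 224 ± 38.3, Cyp2c70 at 203 ± 26.2, Cyp2c55 at 165 ± 26.7, Cyp2c40 at 143 ± 22.2, Cyp2c54 at 111 ± 36.8, Cyp2c44 at 105 ± 11.5, Cyp2c38 at 25.0 ± 4.74 and Cyp2c39 at 5.32 ± 0.626 (SD, n = 6 each). Only Cyp2c29 over Cyp2c37, Cyp2c44 over Cyp2c38 and Cyp2c38 over Cyp2c39 did not overlap among these neighbors. With its transcript length Cyp2c50 stood at 362 ± 62.0 CPM per kb (312 to 463), rank 2 and above every value of Cyp2c37 (188 to 279), and Cyp2c44 ranked 7 and Cyp2c54 ranked 8. Cyp2c55, the lowest member in control mice, reached rank 5, and Cyp2c70 moved from rank 2 to rank 4. The summed level of the 10 members was 1406 ± 225 CPM per kb in control and 2595 ± 370 CPM per kb in BIBB-515 mice, with no overlap (1099 to 1708 against 2245 to 3061). Without Cyp2c29 the sum was 970.0 ± 166 and 1209.5 ± 149 CPM per kb, and the groups overlapped (818.9 to 1199 against 1056 to 1411). Cyp2c29 made up 31.0% ± 3.91 of the sum in control and 53.3% ± 1.62 in BIBB-515 mice, while Cyp2c70 made up 25.5% ± 2.35 and 7.92% ± 1.30 (SD, n = 6). These sums and shares use the longer exon length of Cyp2c50, which lowers its part and raises those of other members. With transcript lengths the sum of the 10 members was 1480 ± 236 CPM per kb in control and 2749 ± 394 in BIBB-515 mice. Shares were not computed with these lengths.

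**Figure D4:**
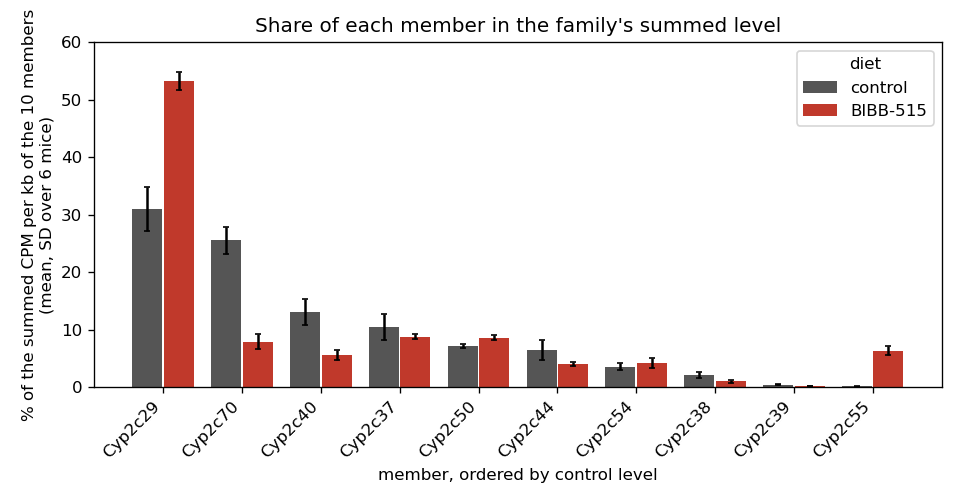
Share of each member in the summed CPM per kb of the 10 members, in percent, as mean (bars) and SD (error bars) over 6 mice per diet. Reads that members with shared sequence can lose were not corrected for. Shares use the exon length of 2932 bases for Cyp2c50, which is longer than its transcript. Cyp2c29 stands at 31.0% in control and 53.3% in BIBB-515 mice, Cyp2c70 at 25.5% and 7.92%, and Cyp2c55 at 0.194% and 6.36%.

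Members next to each other in the order along the chromosome did not all move by the same amount. Other genes lie between the members of some pairs. The log2 ratio of CPM within each mouse was compared between the diets for the 9 pairs of members adjacent along the chromosome, by exact permutation (two-sided, every labeling of the 12 mice, smallest possible p 0.00216) and adjustment over the 9 pairs. The ratio of Cyp2c55 to Cyp2c29 went from -7.32 ± 0.80 (SD, n = 6) in control to -2.92 ± 0.17 in BIBB-515 mice (adjusted permutation p = 0.00486). Cyp2c55 and Cyp2c29 have 244397 bases between them, with Cyp2c65, Cyp2c66 and Cyp2c53-ps inside. Cyp2c29 over Cyp2c38, with 58842 bases between them, rose by 1.95, and Cyp2c50 over Cyp2c70, with 39405 bases between them, rose by 1.98 from -1.06 ± 0.12 to 0.92 ± 0.31 (SD, n = 6, adjusted permutation p = 0.00486 for both). In these pairs and in Cyp2c70 over Cyp2c44, which fell by 1.07 (adjusted permutation p = 0.00486), the mice of the diets did not overlap. Cyp2c70 and Cyp2c44 have 3817735 bases and other genes between them. Cyp2c40 over Cyp2c37 fell by 1.02 (adjusted permutation p = 0.00779) with 5 of 6 BIBB-515 mice below every control mouse.

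Other neighbors kept closer ratios. Cyp2c54 over Cyp2c50, which are transcribed in opposite directions with 15865 bases between them, was -1.75 ± 0.23 in control and -1.79 ± 0.28 in BIBB-515 mice (SD, n = 6, adjusted permutation p = 0.835). Cyp2c38 over Cyp2c39 differed by -0.12 (adjusted permutation p = 0.487) and Cyp2c39 over Cyp2c40 by 0.20 (adjusted permutation p = 0.435). Cyp2c37 over Cyp2c54 differed by -0.46 (adjusted permutation p = 0.0649), and passed the threshold without control mouse 4 (adjusted permutation p = 0.0325) or BIBB-515 mouse 11 (adjusted permutation p = 0.0130).

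**Figure D5:**
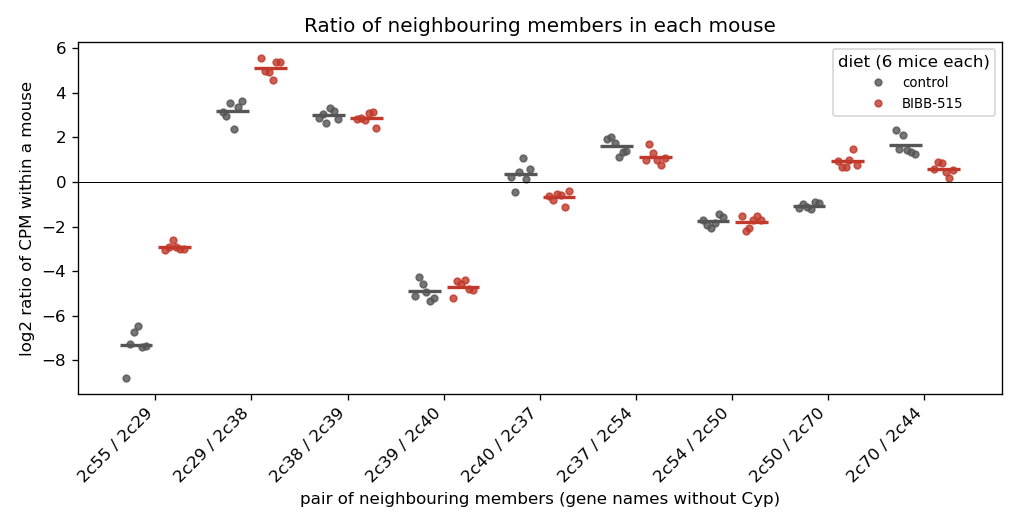
Log2 ratio of the CPM of neighboring members within each mouse (points, 6 per diet, grey control and red BIBB-515; bars are means). The diets do not overlap for Cyp2c55 over Cyp2c29, Cyp2c29 over Cyp2c38, Cyp2c50 over Cyp2c70 and Cyp2c70 over Cyp2c44.

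The cluster without Cyp2c44 spans 1180 kb (chr19:39007019-40187286) and holds 15 Cyp2c rows and no other gene of the tables. Hells, the nearest gene of the tables before it, encodes a chromatin remodeler and had 0.880 ± 0.376 CPM in control and 0.950 ± 0.225 CPM in BIBB-515 mice (log2 fold change 0.11, FDR 0.841 by edgeR). Pdlim1, the nearest after it, encodes a cytoskeletal LIM protein and had 36.0 ± 2.70 and 35.2 ± 4.58 CPM (log2 fold change -0.03, FDR 0.836). On either side of Cyp2c44, Cpn1, a carboxypeptidase subunit of plasma, had a log2 fold change of -0.25 (FDR 0.0357) and Erlin1, a protein of the endoplasmic reticulum, of 0.22 (FDR 0.0569).

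Promoters of the family resemble each other, and 27 bases around CAAAGTC, the start of the HNF4 core, are shown for the tested Cyp2c genes whose RefSeq promoter holds it on the strand of the gene, with CAAAGTC in capitals. Cyp2c39 has 2 start sites in RefSeq with the same 27 bases, in promoters that begin at chr19:39347096 and chr19:39510572. Cyp2c38 lies between them, and the counted Cyp2c39 begins at 39510822, in the second promoter. Cyp2c37 holds CAAAGTC 2 times, 184 and 116 bases before the start site, of which the nearer is printed.
Cyp2c29: atcaaagagaCAAAGTCtattagagag
Cyp2c39: atcaaagggaCAAAGTCtacttgaaag
Cyp2c37: agtattgtagCAAAGTCtagttgaatg
Cyp2c67: atcattgagaCAAAGTCcatttggaag
Cyp2c68: atcattgaaaCAAAGTCcaattggaag
Cyp2c40: atcattgagaCAAAGTCcatttggaag
Cyp2c69: atcattgagaCAAAGTCcatttggaag
Cyp2c70: aggtcaaactCAAAGTCcaaactctgt

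The last 5 of these go on to the full CAAAGTCCA, and the lines of Cyp2c29, Cyp2c39 and Cyp2c37 do not. These 5 genes had negative log2 fold changes, of which that of Cyp2c40 did not pass the test, but so did Cyp2c39 (-0.14), Cyp2c38 (-0.26) and 6604 of all 12481 tested genes. The promoters of Cyp2c55, Cyp2c38 and Cyp2c50 do not hold CAAAGTC. Searched on both strands, CAAAGTC is in 4.44% and CAAAGTCCA, which contains it, in 0.475% of the 32851 RefSeq promoters of the same length, TATAAA in 13.6%, AGGTCA in 16.3% and AGTTCA in 14.0%. Of the 62 tested genes with CAAAGTCCA in a promoter, 4 were higher and 7 lower at an FDR of 0.05 by edgeR. Of the 9471 tested genes with a RefSeq promoter, 697 were higher and 618 lower. The median log2 fold change was -0.08 over the 62 genes and -0.01 over the 9471. The 7 lower genes include Cyp2c67, Cyp2c68, Cyp2c69 and Cyp2c70. Cyp2c40, Cyp2c67, Cyp2c68 and Cyp2c69 are all among the 62, and their promoters are 91.6% to 98.9% identical. They are therefore not 4 separate observations of the motif. TATAAA begins 31 bases before the start site of Cyp2c38 and at base 41 after that of Cyp2c40. Cyp2c54 and Cyp2c44 had no entry in the promoter table.

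Among the partners of P450s, Por, the reductase that feeds electrons to every Cyp2c enzyme, had 396 CPM in the lowest control mouse, 530.5 at the median and 754 in the highest, and 848, 985 and 1003 CPM with BIBB-515. The groups did not overlap, and the log2 fold change of Por was 0.79 (standard error 0.14, FDR 0.00265). Pgrmc1, a heme-binding membrane partner of P450s, rose by 0.73 (standard error 0.08, FDR 5.09e-05), also without overlap, and 2 of the 4 tested genes of this list were higher and 0 lower. Of the 5 tested genes of epoxide hydrolases and Cyp2j epoxygenases, only Ephx1, the microsomal epoxide hydrolase, passed the test, from a median of 148 CPM to 468 CPM (log2 fold change 1.61, standard error 0.18, FDR 4.21e-05). The 8 tested heme synthesis genes had a median log2 fold change of 0.0046.

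Of the 24 tested CAR and PXR target genes outside the family, 15 were higher and 0 lower at an FDR of 0.05 by edgeR, with a median log2 fold change of 1.52. Those named by the lowest p were Ces2a, a carboxylesterase (log2 fold change 3.53), Cyp3a11, the main Cyp3a enzyme (3.24), Gsta1, a glutathione transferase (6.38), and Aldh1a1, a retinal dehydrogenase (2.25), none with overlap. Gsta1 had 0.0774 to 0.398 CPM in control and 12.4 to 26.2 CPM in BIBB-515 mice. It passed the filter only through the BIBB-515 mice, and its fold change rests on control values near 0. Transcripts of the receptors Nr1i2 and Nr1i3 did not pass the threshold. Nr1i2 had 95.02, 106 and 148 CPM at the lowest, median and highest control mouse and 122, 135 and 156 CPM with BIBB-515 (log2 fold change 0.29, standard error 0.10, FDR 0.0658). Without control mouse 2, which held the highest control value, the log2 fold change of Nr1i2 was 0.39 and the FDR 0.00411. Nr1i3 had 127, 184 and 225 CPM in control and 159, 183 and 213 CPM with BIBB-515 (log2 fold change 0.02, standard error 0.12, FDR 0.929). Of the 15 tested nuclear receptors and liver factors, 1 was higher and 0 lower, with a median of -0.04, and the gene called was Cebpb, a liver transcription factor (log2 fold change 0.60, FDR 0.0180), with overlapping groups. These lists were written with earlier results of the same libraries known.

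Markers of cell types were read beside the members. The 4 tested hepatocyte markers had a summed level of 134310 to 153190 CPM in control and 100570 to 115080 CPM in BIBB-515 mice. Most of this sum was Alb, serum albumin, at 114350 to 127480 CPM in control and 81799 to 95996 CPM with BIBB-515. Alb was lower by -0.40 (FDR 0.0129) and Ttr, transthyretin, by -0.49 (FDR 0.00391), both without overlap. Apoa1 (-0.27, FDR 0.128) and Apob (-0.06, FDR 0.777) did not pass the threshold. Of 10 pericentral hepatocyte markers, 1 was higher and 5 lower at an FDR of 0.05, and their summed level was 6313 to 10317 CPM in control and 7526 to 8725 CPM with BIBB-515. Cyp1a2, an inducible P450, rose by 0.73 (FDR 0.000324), whereas Rgn, regucalcin, had a log2 fold change of -0.47 (FDR 0.000631), Gulo, of ascorbate synthesis, of -0.45 (FDR 0.00148) and Glul, glutamine synthetase, of -0.29 (FDR 0.0272). The other 2 that fell were Slc1a2, a glutamate transporter, and Lgr5, a Wnt target, both with overlap. Of 10 periportal markers, 3 were higher and 1 lower, Cyp2f2 rising by 0.99 (FDR 6.76e-05) and Hal, histidine ammonia lyase, by 0.55 (FDR 0.00450). The third that rose was Hsd17b13, a lipid droplet protein (0.28), and the 1 that fell was Pck1, of gluconeogenesis (-0.56), both with overlap. Ass1, also among these 10, was near the filter, with 0.525 to 1.66 CPM in control and 0.464 to 1.02 CPM with BIBB-515. At the same threshold 7.18% of all tested genes were higher and 6.48% lower. The part of these markers in the changes of the members was not tested.

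Markers of other cell types gave few calls. The 5 cholangiocyte markers summed to 62.6 to 116 CPM in control and 91.9 to 154 CPM with BIBB-515, the 4 leukocyte and Kupffer markers to 192 to 331 and 231 to 357 CPM and the 5 endothelial markers to 159.9 to 215 and 145 to 197 CPM, with 0 called in each list. Of the 5 stellate markers 2 were lower, Lrat, of retinol storage, and Dcn, decorin, both with overlap (summed level 260.2 to 355 against 247 to 305 CPM). Among intestine markers, which bear on Cyp2c55 as a gene known from the gut, Alpi and Cdx2 had 0 reads in every library, which allows up to 3 reads in all, and Fabp2, the only one tested, carried nearly the whole sum of 65.2 to 142 CPM in control and 61.3 to 83.5 CPM with BIBB-515, and was lower (log2 fold change -0.66, FDR 0.0114). Adipocyte markers summed to 6.82 to 11.3 and 6.92 to 11.6 CPM, with Lep at 0 reads and 1 gene tested and not called, and kidney markers to at most 0.0774 CPM, with none tested and Slc12a1 and Kap at 0 reads.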

How the data were processed

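Liver RNA-seq of 12 mice, 6 per diet, was analysed. The authors deposited raw read counts per gene that per the file headers come from featureCounts 1.6.3 with a UCSC annotation of mm10, with no strand option, leaving out multi-mapping reads and reads shared by overlapping genes. The submitters' processing notes name STAR 2.5.3a. The deposited exon tables count a read for each exon it overlaps. The deposited transcript tables were not used. How the libraries were prepared is not given in the sources used here.

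Genes reaching 1 CPM in 2 or more libraries were kept (12481 of 24062). After TMM normalization, edgeR 4.0.16 (R 4.3.3) fitted diet alone by its quasi-likelihood method, with Benjamini-Hochberg adjustment over the 12481 genes. The fit was run on counts simulated from its own dispersions, which cannot show how well the model suits these mice. CPM values are scaled by TMM. Neighbor ratios were tested by exact permutation (scipy 1.17.1). Alternatives were upper-quartile scaling, DESeq2 1.42.0, limma-voom (limma 3.58.1), other filters, primary alignment tables and each mouse left out.

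The labels call the mice separate samples and give no batch, cage or date. Per library 22764819 to 31058370 reads were counted, and the common biological coefficient of variation was 0.143.

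The members and the 15 gene lists were chosen with earlier results of these data known. Named genes are all members, other Cyp2c genes, genes next to the cluster, Nr1i2, Nr1i3, Por and Lss, and of each list at most 4 genes with the lowest p among those past an FDR of 0.05 without overlap. Genes next to Cyp2c44, Cebpb, the hepatocyte markers not called, called list genes with overlap and markers at 0 were chosen after their values were seen. A result that falls under this rule is not reported here. Transcripts were from GENCODE and promoters from RefSeq (GRCm38.p6), matched by symbol or gene ID (promoters for 8 of 10 members).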

Additional observations from a re-analysis of the deposited data

Results flagged for a closer look

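Among 74 sets of 6 mice checked for a value far from the others (the CPM of 36 named genes and the total counts, in each diet), 1 stood out, where chance gives about 1 in 20, or 3.7. In Nr1i2, control mouse 2 had 148 CPM and the next highest control mouse 114 CPM, a gap of 0.636 of the range of the 6 mice, over the critical value of Dixon's test at 95%. No member stood out in this way in either diet. The neighboring pairs and the sums over members were not checked.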

How the results depend on the processing

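No paired analysis was made, because the mice were randomized to the diets and the labels name no pairs. The replicate number that both diets hold, 6, is not labeled as a pair. Over 6 other settings and 12 omissions of a mouse, 171 of 180 fold changes of members kept their direction and their side of the threshold, 9 passed it newly (8 of Cyp2c37, 1 of Cyp2c40) and 0 reversed. Members called higher numbered 4 to 5 and members called lower 1 to 2 without 1 mouse, the 2 only without control mouse 2. All genes called numbered 1199 to 1865 without 1 mouse, and 2244 with DESeq2 and 1489 without a filter, beside 1705. The alternatives for the ratios and for genes that are no members, and the transcript lengths, were chosen after seeing the data. The difference of Cyp2c37 over Cyp2c54 lay between -0.573 and -0.376 without 1 mouse. That of Cyp2c54 over Cyp2c50 lay between -0.0911 and 0.0487, and turned positive without control mouse 5 (0.0312), control mouse 6 (0.0034), BIBB-515 mouse 6 (0.0201) or BIBB-515 mouse 11 (0.0487). The log2 fold change of Nr1i3 lay between -0.0549 and 0.0990, and was negative without control mouse 3 (-0.0549), BIBB-515 mouse 7 (-0.0102) or BIBB-515 mouse 8 (-0.0254). Lss was called with limma-voom (FDR 0.0433) and without control mouse 3 (FDR 0.00266), Nr1i2 with DESeq2 (FDR 0.0356), Cyp2c69 not with limma-voom (FDR 0.0752), Alb not without a filter (FDR 0.0591), and Glul not in 7 of 18 settings (FDR up to 0.0624). The cause was not tested. Without length scaling Cyp2c50 ranked 4 and Cyp2c37 ranked 5 in control. With transcript lengths Cyp2c50, Cyp2c37, Cyp2c44 and Cyp2c54 changed rank with BIBB-515. Depth limits Cyp2c55 in control and Cyp2c39 most, with 49 to 183 and 206 to 353 reads per library.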

Other observations

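Within each diet, several members were high in the same mice. Among the BIBB-515 mice, mice 8 and 10 held the highest and second highest values of Cyp2c29 (3014 and 2948 CPM), Cyp2c50 (838 and 745 CPM), Cyp2c54 (291 and 262 CPM), Cyp2c44 (262 and 254 CPM) and Cyp2c37 (mouse 10 at 509 and mouse 8 at 498 CPM). These mice did not hold the top values of Cyp2c55, Cyp2c70, Cyp2c38 or Cyp2c39, which were those of mouse 6 (388 CPM), mouse 6 (405 CPM), mouse 7 (90.8 CPM) and mouse 6 (11.2 CPM). Mouse 8 was second highest for Cyp2c55 (374 CPM) and mouse 10 for Cyp2c70 (384 CPM). For Cyp2c40, mouse 10 was highest (328 CPM) and mouse 8 lowest (227 CPM). Among the control mice, mouse 5 was highest for Cyp2c29, Cyp2c50, Cyp2c54, Cyp2c44 and Cyp2c69, mouse 1 for Cyp2c37, Cyp2c40, Cyp2c68, Cyp2c70 and Cyp2c39, and mouse 3 for Cyp2c55. The spread between mice was smaller with BIBB-515 than in control in 7 of the 10 members and larger in 3. This count includes small differences, and the share over all tested genes was not determined, so it is not read as a trait of the members. The spread was smaller for Cyp2c55 (coefficient of variation 16.2% against 37.8%), Cyp2c37 (16.8% against 32.8%) and Cyp2c44 (11.0% against 27.3%), and larger for Cyp2c38 (18.9% against 13.0%). It was close to equal for Cyp2c54 (33.1% against 32.1%), Cyp2c50 (17.1% in each), Cyp2c39 (11.8% against 12.5%) and Cyp2c70 (12.9% against 13.5%). These spreads were not tested, and members of a mouse share its library.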
